A study of Mus musculus with 24 samples.

Results

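The genes described here are 3 FoxO transcription factors (Foxo1, Foxo3 and Foxo4), 3 ubiquitin ligases of muscle atrophy (Fbxo32, Trim63 and Fbxo30), the translation inhibitor Eif4ebp1 and the death ligand Tnfsf10. They were taken by name, as known members or targets of the FoxO pathway, but with earlier results of these data known. Counts of members set beside shares of all genes are therefore descriptions. Each symbol matched 1 Ensembl gene in GENCODE, so that 8 of the 55487 genes counted are covered. RNA was sequenced from the left tibialis anterior (TA) of 24 wild-type male C57BL/6J mice aged 5 to 7 weeks, 6 mice in each of 4 groups. Photobiomodulation therapy (PBMT) was 830 nm light at 25 mW/cm2 for 20 min, 30 J/cm2 in all, given under anesthesia through shaved skin. Controls had the same shaving and anesthesia but no light. Sedentary mice were dissected 24 h after PBMT or control handling, and fatigued mice ran on a treadmill to exhaustion 24 h after it and were dissected afterwards. Sedentary and fatigued mice were sequenced as 2 separate projects, so that exercise and sequencing project cannot be told apart in any comparison between them. Each replicate was a different mouse.

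Total counts over all genes ranged from 43271093 to 46904076 per mouse in sedentary controls (median 45278264) and from 46327516 to 52775844 in sedentary PBMT mice (median 49421796). They ranged from 56792327 to 68726155 in fatigued controls (median 61892168) and from 53122528 to 68566029 in fatigued PBMT mice (median 60228908). These totals exceed the read pairs per mouse that the labels give, and whether both mates of a pair were counted separately was not stated, so a count here may stand for a read or for a pair. Sedentary PBMT libraries were larger than their controls (exact permutation test of 6 against 6 mice, two-sided, p = 0.00433), and the fatigued ones did not differ detectably (exact p = 0.357). All 8 genes passed the low-count filter of every comparison. Tnfsf10 had the fewest counts, 97 to 544 per mouse, and Trim63 the widest range, 7222 to 79950. Levels are given in CPM, the count of a gene relative to the library size of its mouse after scaling by the trimmed mean of M-values over the 24 mice, as mean ± SD of 6 mice.

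FoxO factors are forkhead transcription factors that Akt phosphorylates in response to insulin and IGF-1, which holds them in the cytoplasm. When Akt signalling falls, as in fasting, disuse or glucocorticoid excess, they enter the nucleus and raise transcription of ubiquitin ligases and autophagy genes, and muscle protein is broken down. Fbxo32 (atrogin-1) and Trim63 (MuRF1) are the ligases most used as markers of that state. FoxO activity is set largely by phosphorylation and location, which RNA levels do not measure.

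Compared per kilobase of exon, the members differed in level far more than most of them moved between groups. In sedentary controls Trim63 stood highest at 87.0 ± 36.2 CPM per kb, followed by Foxo4 at 68.2 ± 10.0 and Fbxo32 at 52.1 ± 8.10, and the mice of neighbours in that order overlapped. Eif4ebp1 came next at 19.0 ± 2.89 CPM per kb, clear of both neighbours. Foxo3 (4.37 ± 0.329) lay above Foxo1 (3.15 ± 0.510) without overlap, Foxo1 overlapped Fbxo30 (3.08 ± 0.445), and Tnfsf10 was lowest at 0.688 ± 0.0934 CPM per kb. In sedentary PBMT mice Fbxo30 (3.40 ± 0.124 CPM per kb) stood above Foxo1 (2.15 ± 0.236), and those mice did not overlap. In the fatigued groups Trim63 reached 262.9 ± 64.0 CPM per kb in controls and 345.3 ± 79.7 with PBMT, clear of Fbxo32 (74.6 ± 11.1 and 74.4 ± 23.8). Foxo1 there stood at 10.0 ± 3.29 and 9.44 ± 3.01 CPM per kb and overlapped Foxo3 (6.33 ± 1.203 and 5.92 ± 1.10). Of the 3 FoxO factors Foxo4 was thus the most abundant per kb in all 4 groups.

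**Figure D1:**
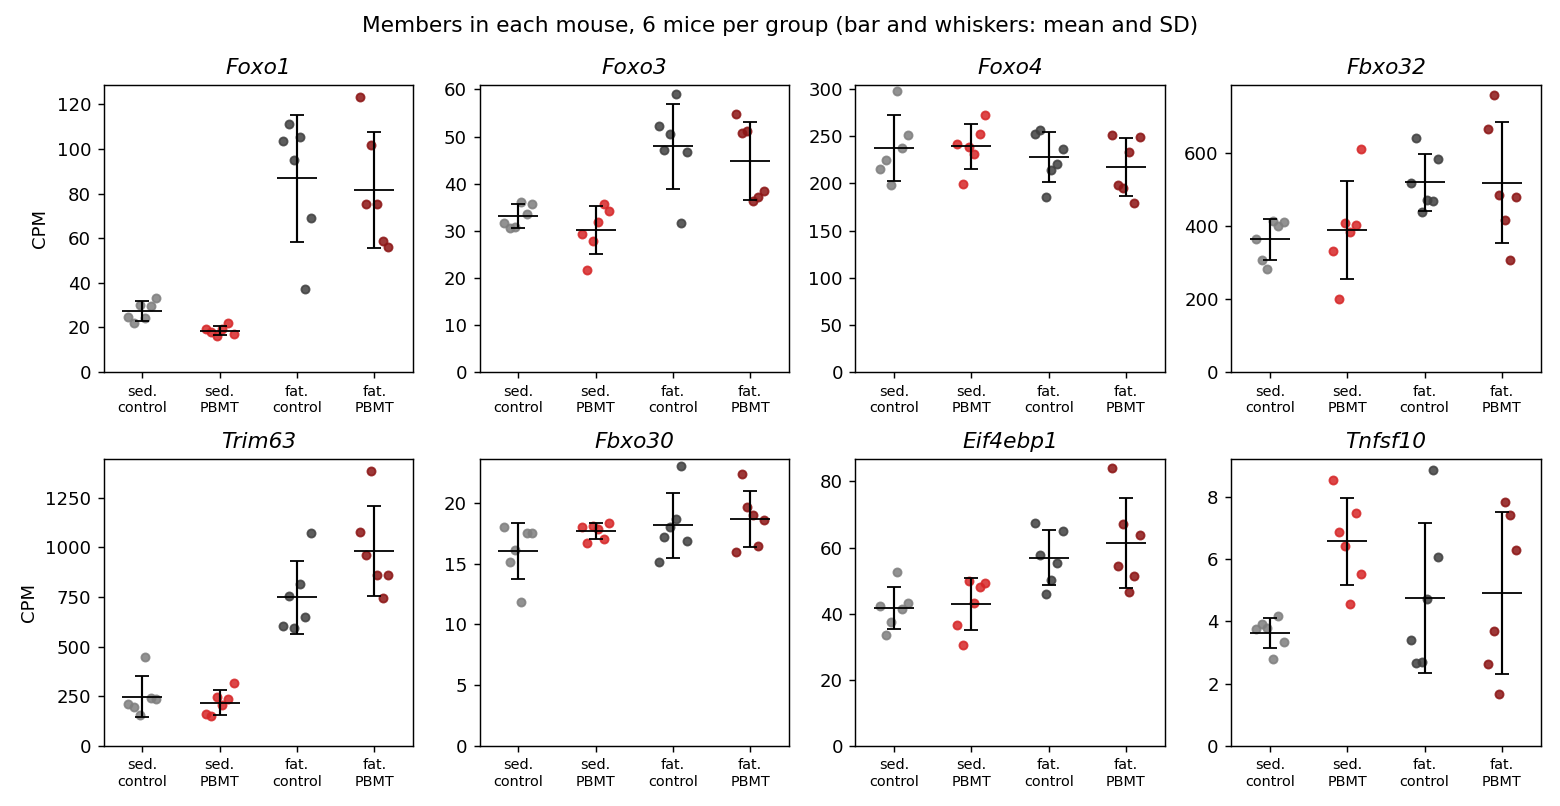
Level of each of the 8 genes in CPM (vertical axis, 1 panel per gene, 6 mice per group as points, mean and SD as bars) in muscle of sedentary and fatigued mice, each without and with PBMT. Tnfsf10 lay at 4.57 to 8.53 CPM in sedentary PBMT mice, above every sedentary control (2.79 to 4.17), and Foxo1 and Trim63 were higher in every fatigued mouse than in any sedentary mouse.

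The first question was whether PBMT alone moved these genes in sedentary muscle. No member passed an adjusted p of 0.05 in edgeR's quasi-likelihood test. The members farthest from 0 were Tnfsf10, with every PBMT mouse above every control, and Foxo1, with 5 of 6 PBMT mice below every control. Each mouse was measured once, so higher or lower in 6 of 6 mice means below that the groups did not overlap. Across all genes, 4 of 14177 (0.0282%) passed, none of them a member. At an unadjusted p under 0.05, 1 member was higher, against 3.33% of all genes, and 1 was lower, against 4.3%. The mice of the groups did not overlap for 1 member, against 0.48% of all genes. The median log2 fold change was 0.03 over the 8 members and −0.00 over all genes tested, with 5 members above 0 and 3 below. DESeq2 called 60 genes in this comparison, Tnfsf10 and Foxo1 among them.

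Foxo1 (ENSMUSG00000044167, chromosome 3, 52268336 to 52353221, plus strand, GRCm38), the FoxO factor that also controls gluconeogenesis in liver, ranged from 21.8 to 33.4 CPM in sedentary controls (median 27.2) and from 16.0 to 21.9 CPM in sedentary PBMT mice (median 18.6). Of the PBMT mice 5 lay below the lowest control, and mouse 5, at 21.9 CPM, lay just above it, so that the groups touched. The log2 fold change was −0.55 (SE 0.105, adjusted p = 0.0896 in edgeR), rank 11 of 14177 genes by p, and the exact permutation p was 0.00433. It passed the threshold in DESeq2 (adjusted p = 0.00173), with no filter on low counts (0.0174), without sedentary control mouse 4 (0.0380) and without PBMT mouse 5 (0.0467), and over all alternatives the adjusted p ran from 0.00173 to 0.626. An antisense gene, Gm20402, shares 674 exon bases with Foxo1, and as the strand setting of the counting was not stated, reads of the 2 genes cannot be told apart there.

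Foxo3 (ENSMUSG00000048756, chromosome 10, 42181841 to 42276755, minus strand), the factor best known for driving Fbxo32, ranged from 30.5 to 36.2 CPM in sedentary controls (median 32.6) and from 21.7 to 35.7 CPM with PBMT (median 30.6). Its groups overlapped, with 3 PBMT mice below the lowest control, and the log2 fold change of −0.13 had an adjusted p of 0.734 in edgeR. That fold change ran from −0.19 to −0.049 with each mouse left out in turn. Foxo4 (ENSMUSG00000042903, chromosome X, 101254528 to 101260873, plus strand) stood at 237.5 ± 35.0 CPM in controls and 239 ± 24.2 CPM with PBMT, with no PBMT mouse outside the control range. Neither gene was shown to differ, which is not evidence that PBMT left it as it was.

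Among the ligases, Fbxo32 (ENSMUSG00000022358, chromosome 15, 58175879 to 58214932, minus strand), the F-box subunit that brings MyoD and eIF3f to an SCF complex, ranged from 283 to 414 CPM in sedentary controls and from 199.5 to 612 CPM with PBMT. The PBMT mice spread both below and above the controls, 1 on each side. Trim63 (ENSMUSG00000028834, chromosome 4, 134315120 to 134329629, plus strand), a RING ligase of thick-filament proteins, ranged from 156 to 448 CPM in controls (median 223) and from 148 to 317 CPM with PBMT (median 219). Control mouse 4 alone reached 448 CPM, the next control being at 239 CPM, and without it the log2 fold change turned from −0.17 to 0.072. That mouse also had the highest Foxo4 (298 CPM) and Eif4ebp1 (52.5 CPM) and the lowest Fbxo30 (11.8 CPM) and Tnfsf10 (2.79 CPM) of its group. Its Fbxo32 (414 CPM) and Foxo3 (36.2 CPM, the next control at 35.8 CPM) were the highest too, by narrow margins. Its summed level of 10 fast fibre markers was 207368 CPM against 136809 to 157369 CPM in the other controls, and the part of this in the member values was not tested. Fbxo30 (ENSMUSG00000047648, chromosome 10, 11281330 to 11298052, plus strand), the SCF ligase MUSA1 that BMP signalling holds down, stood at 16.0 ± 2.32 CPM in controls and 17.7 ± 0.642 CPM with PBMT, with a log2 fold change of 0.15 (SE 0.0949, adjusted p = 0.691 in edgeR). Without 1 mouse at a time the Fbxo30 value ran from 0.069 to 0.19. Over the 3 ligases the log2 fold changes ran from −0.17 to 0.15, and none of the exact permutation p-values was below 0.0996. Gm15943, antisense to Fbxo32, shares 186 exon bases with it, with the same limit as for Foxo1.

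Eif4ebp1 (ENSMUSG00000031490, chromosome 8, 27260329 to 27276674, plus strand) encodes 4E-BP1, which binds the cap-binding protein eIF4E and blocks translation until mTORC1 phosphorylates it. It ranged from 33.6 to 52.5 CPM in sedentary controls (median 41.8) and from 30.6 to 49.8 CPM with PBMT (median 45.6). The groups overlapped almost fully, with a log2 fold change of 0.05 (adjusted p = 0.931 in edgeR).

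Tnfsf10 (ENSMUSG00000039304, chromosome 3, 27317028 to 27342427, plus strand) encodes TRAIL, a ligand that triggers apoptosis through death receptors and is a known FoxO3 target in several cell types. It ranged from 2.79 to 4.17 CPM in sedentary controls (median 3.76) and from 4.57 to 8.53 CPM in PBMT mice (median 6.66). All 6 PBMT mice lay above the highest control. The log2 fold change was 0.86 (SE 0.146), and the adjusted p of 0.0503 in edgeR, rank 5 of 14177 genes, missed the threshold narrowly. The exact permutation p was 0.00216, the smallest that 6 against 6 mice allow. Tnfsf10 passed in DESeq2 (adjusted p = 5.66e-05), with no filter on low counts (0.00425), with replicate number as a block (0.0159), without control mouse 4 (0.0378) and without PBMT mouse 4 (0.00848). The adjusted p was 0.171 without PBMT mouse 1 and 0.626 with all 24 mice in 1 model, while the log2 fold change stayed between 0.77 and 0.94 with each mouse left out in turn.

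In bulk muscle, fewer cells of a type and less RNA per cell cannot be told apart, which bears on Tnfsf10, a gene of leukocytes and endothelium as well as muscle. All 8 of the 8 macrophage and leukocyte markers tested (of 10 listed) had a negative log2 fold change with PBMT in sedentary muscle (median −0.55), and 3 of them had an unadjusted p under 0.05, with 0 called by edgeR and 1, Cd163, by DESeq2. The summed level of all 10 listed was 83.2 ± 27.7 CPM in sedentary controls and 56.2 ± 11.4 CPM in PBMT mice, led by Lyz2. The 7 endothelial markers, led by Cdh5, summed to 264 ± 16.9 CPM and 281 ± 54.1 CPM, with 5 above 0 and 2 below (median 0.06). Of these 0 were called by edgeR or DESeq2 and 2 were higher at an unadjusted p under 0.05, Kdr (0.45) and Tek (0.19). The 7 interstitial markers, led by Col3a1, summed to 867 ± 142 CPM and 731 ± 212 CPM, with 7 of 7 below 0, 0 called by edgeR or DESeq2 and 1 lower at an unadjusted p under 0.05. No marker of these lists was at 0 in all mice. The leukocyte sum was thus lower where Tnfsf10 was higher, and 2 of 7 endothelial markers were higher at an unadjusted p under 0.05. The part of these markers in the result was not tested.

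In the fatigued muscle the question was whether the same genes differed when light was given a day before exhaustive running. The paper reports that PBMT mice ran longer than controls at this time, so light and length of run cannot be told apart here. The same limit applies to every other comparison that includes fatigued PBMT mice. No member was called by edgeR or by DESeq2. By edgeR 0 of 14574 genes passed (0%), and DESeq2 called 2. At an unadjusted p under 0.05, 1 member was higher, against 1.08% of all genes, and none was lower, against 0.501%. No member had groups that did not overlap, against 0.0274% of all genes. The member median was 0.02, beside 0.00 for all genes.

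That 1 member was Trim63, which ranged from 594 to 1074 CPM in fatigued controls (median 701) and from 747 to 1384 CPM in fatigued PBMT mice (median 910). PBMT mice 1 and 3 lay above the highest control, and the other 4 lay within the range of the controls. The log2 fold change was 0.39 (SE 0.168), with an adjusted p of 0.9998 in edgeR and an exact permutation p of 0.0584. It stayed between 0.27 and 0.52 with each mouse left out in turn.

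Foxo1 ranged from 37.1 to 111 CPM in fatigued controls (median 99.2) and from 56.1 to 123 CPM with PBMT (median 75.4). Tnfsf10 ranged from 2.66 to 8.87 CPM in fatigued controls (median 4.07) and from 1.68 to 7.84 CPM with PBMT (median 4.99). Both genes spread widely inside each fatigued group. Fatigued control 5 had the lowest Foxo1 of the 12 fatigued mice (37.1 CPM), the lowest Foxo3 (31.7 CPM) and the highest Tnfsf10 (8.87 CPM). Fatigued PBMT mice 1 and 3 had the highest Foxo1 of their group (123 and 102 CPM) and its lowest Tnfsf10 (2.63 and 1.68 CPM). With log2 CPM taken as deviations from the group mean, Pearson r of Foxo1 and Tnfsf10 was −0.802 within the 12 fatigued mice. Within the 12 sedentary mice it was 0.172, so the opposite course was not seen there. The log2 fold changes with PBMT were −0.09 for Foxo1 and 0.06 for Tnfsf10, small beside the spread of the mice. Without 1 mouse at a time the Tnfsf10 value ran from −0.12 to 0.34.

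For the other 5 members the log2 fold change in fatigued muscle ran from −0.10 for Foxo3 to 0.11 for Eif4ebp1. Fbxo32 stood at 520.1 ± 77.6 CPM in fatigued controls and 519 ± 166 CPM with PBMT, a log2 fold change of −0.00. Here too the PBMT mice spread more widely than the controls, from 306 to 759 CPM against 438 to 641 CPM. Their exact permutation p-values were all above 0.5, and every adjusted p in edgeR was 0.9998.

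The PBMT effects in sedentary and fatigued muscle were compared by their interaction over the 24 mice. No member passed in edgeR or in DESeq2, and no member had an unadjusted p under 0.05, against 1 of 15108 genes called (0.00662%) and 4.4% at an unadjusted p under 0.05. The difference, fatigued minus sedentary, was −0.80 for Tnfsf10 (SE 0.447), 0.58 for Trim63 (SE 0.317) and 0.47 for Foxo1 (SE 0.300), each with an adjusted p of 0.946 in edgeR. The sedentary difference in Tnfsf10 was therefore not shown to be absent in fatigued muscle, where the mice varied more. For the remaining 5 members the adjusted p lay between 0.949 and 0.983. Without 1 mouse at a time the Tnfsf10 difference ran from −0.99 to −0.53. That of Trim63 ran from 0.32 to 0.70, and that of Foxo1 from 0.31 to 0.55.

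**Figure D2:**
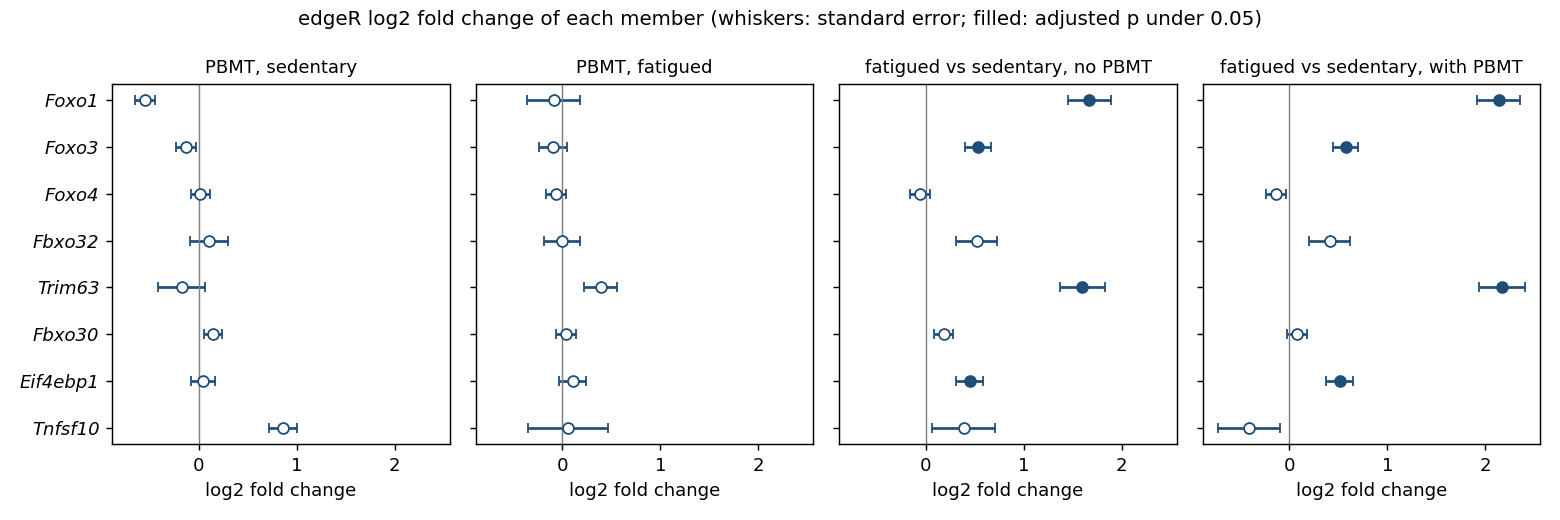
Log2 fold change of each member (points, bars ± SE) for PBMT in sedentary and in fatigued muscle and for fatigued against sedentary muscle without and with PBMT, with filled points for an adjusted p under 0.05 in edgeR. Foxo1 and Trim63 lay at 1.60 to 2.17 in both fatigue comparisons, and no PBMT point was filled.

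Fatigued and sedentary muscle were then set side by side, with the caution that each state was its own sequencing project. Foxo1, Trim63, Foxo3 and Eif4ebp1 were higher in fatigued muscle, both without and with PBMT. Of the 8 members 4 were called higher and none lower without PBMT, against 9.1% of all genes higher and 9.49% lower. With PBMT 4 were again called higher and none lower, against 14.1% and 12.7% of all genes. The mice did not overlap for 3 members in each comparison, against 7.7% of genes without PBMT and 11.2% with it. The median log2 fold change over the members was 0.48 without PBMT and 0.46 with it, beside −0.01 and 0.00 over all genes. Different mice made up these comparisons, and the paper reports longer runs with PBMT, so they do not compare light at equal exercise.

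Foxo1 rose from 27.3 ± 4.42 to 86.9 ± 28.5 CPM without PBMT, a log2 fold change of 1.67 (SE 0.216, adjusted p = 1.59e-05 in edgeR, higher in 6 of 6 mice). With PBMT it rose from 18.6 ± 2.04 to 81.8 ± 26.1 CPM, a log2 fold change of 2.14 (SE 0.22, adjusted p = 4.02e-07 in edgeR, higher in 6 of 6 mice). The lowest fatigued control, at 37.1 CPM, still lay above the highest sedentary one. Foxo3 rose less, from 33.1 ± 2.49 to 47.9 ± 9.10 CPM (0.53 on the log2 scale, SE 0.130, adjusted p = 0.00534 in edgeR), with 5 of 6 fatigued controls above every sedentary control and mouse 5 (31.7 CPM) inside their range. With PBMT all 6 fatigued mice lay above the sedentary ones in Foxo3 (0.57, SE 0.130, adjusted p = 0.00194 in edgeR). Foxo4 showed no detectable difference, at −0.06 and −0.14.

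Trim63 rose from 247 ± 103 to 747 ± 182 CPM without PBMT (1.60 on the log2 scale, SE 0.229, adjusted p = 4.97e-05 in edgeR) and from 218 ± 62.1 to 981 ± 227 CPM with PBMT (2.17, SE 0.233, adjusted p = 6.61e-07 in edgeR). No fatigued mouse overlapped a sedentary one. Fbxo32, the other classical atrophy ligase, went from 363 ± 56.5 to 520.1 ± 77.6 CPM without PBMT, and all 6 fatigued controls were above every sedentary control. Its log2 fold change of 0.52 (SE 0.207) had an adjusted p of 0.0845 in edgeR, which missed the threshold. It passed in DESeq2 (adjusted p = 0.0462) and in an edgeR fit of only the 12 mice compared (0.00575), and over all alternatives the adjusted p ran from 0.00575 to 0.164. With PBMT the value was 0.41 (adjusted p = 0.148 in edgeR), and without sedentary PBMT mouse 6, the highest of its group at 612 CPM, the adjusted p was 0.0306. Fbxo30 differed by 0.18 and 0.08, within the spread of the mice.

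Eif4ebp1 rose from 41.8 ± 6.35 to 56.9 ± 8.35 CPM without PBMT (0.45 on the log2 scale, SE 0.138, adjusted p = 0.0252 in edgeR), with 4 of 6 fatigued controls above every sedentary control. This call was lost without fatigued control 1 (adjusted p = 0.0654), fatigued control 6 (0.0554) or sedentary control 2 (0.0621). With PBMT it rose from 42.9 ± 7.86 to 61.2 ± 13.6 CPM (0.51, SE 0.138, adjusted p = 0.00739 in edgeR), with 5 of 6 fatigued mice above every sedentary one. Tnfsf10 went from 3.62 ± 0.492 to 4.74 ± 2.41 CPM without PBMT (0.39, adjusted p = 0.429 in edgeR) and from 6.57 ± 1.40 to 4.92 ± 2.60 CPM with it (−0.41, adjusted p = 0.353 in edgeR). Neither difference passed, and their signs were opposite. Without 1 mouse at a time the first ran from 0.11 to 0.51 and the second from −0.59 to −0.23.

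Fibre and cell markers also differed between sedentary and fatigued muscle. The 10 fast fibre markers, led by Myh4, summed to 157968 ± 25373 CPM in sedentary and 207219 ± 17369 CPM in fatigued controls, with 5 of 10 called higher. The summed level with PBMT was 164496 ± 14253 CPM in sedentary and 202025 ± 16338 CPM in fatigued mice, with 3 of 10 called higher. Interstitial markers summed to 1292 ± 275 CPM in fatigued controls and 1552 ± 863 CPM in fatigued PBMT mice, in which mouse 5 reached 3220 CPM. Of these 7 markers 1 was called higher without PBMT and 6 with it (median log2 fold change 0.53 and 1.02). Of 8 leukocyte markers tested 1 was called higher and 1 lower without PBMT, and 5 higher and 1 lower with it (median 0.24 and 1.01), and of 6 tendon and cartilage markers none was called by edgeR or DESeq2 without PBMT, 3 being higher at an unadjusted p under 0.05, and 3 were called higher with it. Of 7 satellite cell markers, led by Sdc4, 2 were called higher in each fatigue comparison, and 1 lower with PBMT. Of 7 endothelial markers 2 were called higher in each comparison and 1 lower with PBMT. Of 7 slow fibre markers 1 was called higher and 1 lower without PBMT, and 1 higher with it. Of 6 adipocyte markers 1 was called higher with PBMT, and the 1 keratinocyte marker tested was called lower with PBMT, where DESeq2 called 4 lower. Of 5 erythrocyte markers none was called by edgeR or DESeq2 in either comparison, and 2 were lower without PBMT at an unadjusted p under 0.05. The part of these shifts in the member values was not tested.

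Genes around the members were read from lists of the pathway, beside 3.33% of all genes higher and 4.3% lower at an unadjusted p under 0.05 with PBMT in sedentary muscle. The other FoxO factors and regulators of FoxO (19 genes, among them the acetylases Ep300 and Crebbp and the kinases of the AMPK family) held no call with PBMT in sedentary muscle by edgeR or DESeq2, and 3 were higher and 1 lower at an unadjusted p under 0.05. The smallest p-values were those of Foxo6 (−0.36, adjusted p = 0.596 in edgeR) and Foxk2 (0.21, adjusted p = 0.639 in edgeR). In the insulin, IGF-1, Akt and mTOR list 0 of 32 were called by either tool, 5 being higher and 1 lower at an unadjusted p. Irs2, the insulin receptor substrate that FoxO factors induce, stood at 22.5 ± 4.88 CPM in sedentary controls and 16.1 ± 1.91 CPM with PBMT, lower in all 6 mice than in any control (−0.47, SE 0.121, adjusted p = 0.293 in edgeR). Pik3ca, the catalytic subunit of PI3-kinase, had a log2 fold change of 0.25 (adjusted p = 0.349 in edgeR).

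The other ligases and their partners, the 4E-BP and translation initiation genes, the FoxO-induced autophagy genes and the TRAIL and TNF family held 0 calls by edgeR and DESeq2 among 32, 19, 27 and 17 genes tested. At an unadjusted p under 0.05 there were 3 higher ligases or partners, Asb5 and Fbxo40 having the smallest p-values (0.30 and 0.16), and none in the other 3 lists. Medians lay between −0.01 and 0.08. The mouse TRAIL death receptor Tnfrsf10b was at 0.33 to 1.72 CPM over the 24 mice. Of 32 other genes known as FoxO targets only Cited2, a CBP-binding regulator that FoxO3 induces, was called by edgeR, with 32.1 ± 3.92 CPM in sedentary controls and 50.4 ± 7.08 CPM with PBMT (0.66, SE 0.0989, adjusted p = 0.0183, higher in 6 of 6 mice). DESeq2 called 3 of that list, Cited2, Txnip and Slc7a8.

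Glucocorticoids drive Trim63 and Foxo1 in muscle, and 24 glucocorticoid-responsive genes were read for that reason. With PBMT in sedentary muscle 18 of 24 had a negative log2 fold change, with a median of −0.27 beside −0.00 over all genes, and 8 were lower and none higher at an unadjusted p under 0.05, against 4.3% and 3.33% of all genes. None was called by edgeR, and DESeq2 called 1, Zbtb16. Zbtb16, a zinc finger factor induced by the glucocorticoid receptor, stood at 57.0 ± 9.82 CPM in controls and 41.8 ± 3.45 CPM with PBMT, lower in all 6 mice (−0.44, SE 0.0976, adjusted p = 0.168 in edgeR). Tsc22d3, known as GILZ, had a log2 fold change of −0.39 (adjusted p = 0.349 in edgeR), its groups overlapping. The count of 8 became 5 without PBMT mouse 1 and 5 with all 24 mice in 1 model, and the median became −0.17 without control mouse 4 and −0.18 without PBMT mouse 2. In fatigued muscle the same list had a median of 0.07 with PBMT, and the interaction had a median of 0.37 with 20 of 24 genes above 0, none of them called by edgeR or DESeq2 and 3 at an unadjusted p under 0.05. Some marker lists went the same way as this list, with 8 of 8 leukocyte markers (median −0.55) and 7 of 7 interstitial markers (−0.23) below 0 in sedentary muscle. Others did not, with 7 of 10 fast fibre (0.05) and 5 of 7 endothelial markers (0.06) above 0. In the interaction 8 of 8 leukocyte (0.66), 7 of 7 interstitial (0.49) and 7 of 7 slow fibre markers (0.30) lay above 0, and their part in the result was not tested.

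Clock genes and the acute exercise response were read because both overlap with FoxO targets in muscle. In sedentary muscle edgeR called the clock repressor Nfil3 lower with PBMT (−0.96, SE 0.109, adjusted p = 9.25e-04, lower in 6 of 6 mice) among 19 clock genes. At an unadjusted p under 0.05, 6 clock genes were higher and 3 lower, and DESeq2 called Nr1d1 (0.44), Bhlhe40 (0.44) and Arntl (0.54) higher beside Nfil3, these being log2 values of the edgeR fit. The immediate early factor Egr1 was called higher (2.98, SE 0.383, adjusted p = 0.0139 in edgeR, higher in 6 of 6 mice) among 24 exercise genes, of which 4 were higher and 3 lower at an unadjusted p under 0.05, and DESeq2 also called Nr4a1 lower (−0.85 in edgeR). Nfil3 was also the 1 gene called in the interaction (1.11, SE 0.161, adjusted p = 0.00370 in edgeR).

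With PBMT in fatigued muscle no gene of these 10 lists was called by edgeR or DESeq2. At an unadjusted p under 0.05 the lists held Pdcd4, an inhibitor of eIF4A (−0.20), the ligase Cblb (0.24), the TRAIL decoy receptor Tnfrsf23 (0.34) and the clock repressor Bhlhe40 (0.51), 1 gene each. Of the 10 lists the exercise list had the median farthest from 0, at 0.28 with 19 of 24 genes above 0. Some marker lists lay as far or nearly as far from 0 in the same mice, with 7 of 7 slow fibre (median 0.44), 6 of 6 tendon and cartilage (0.30) and 7 of 7 interstitial markers (0.22) above 0. Not every marker list lay above 0, and 9 of 10 fast fibre markers were below it (−0.04). A further marker list is not reported here. The part of the marker lists in this was not tested.

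**Figure D3:**
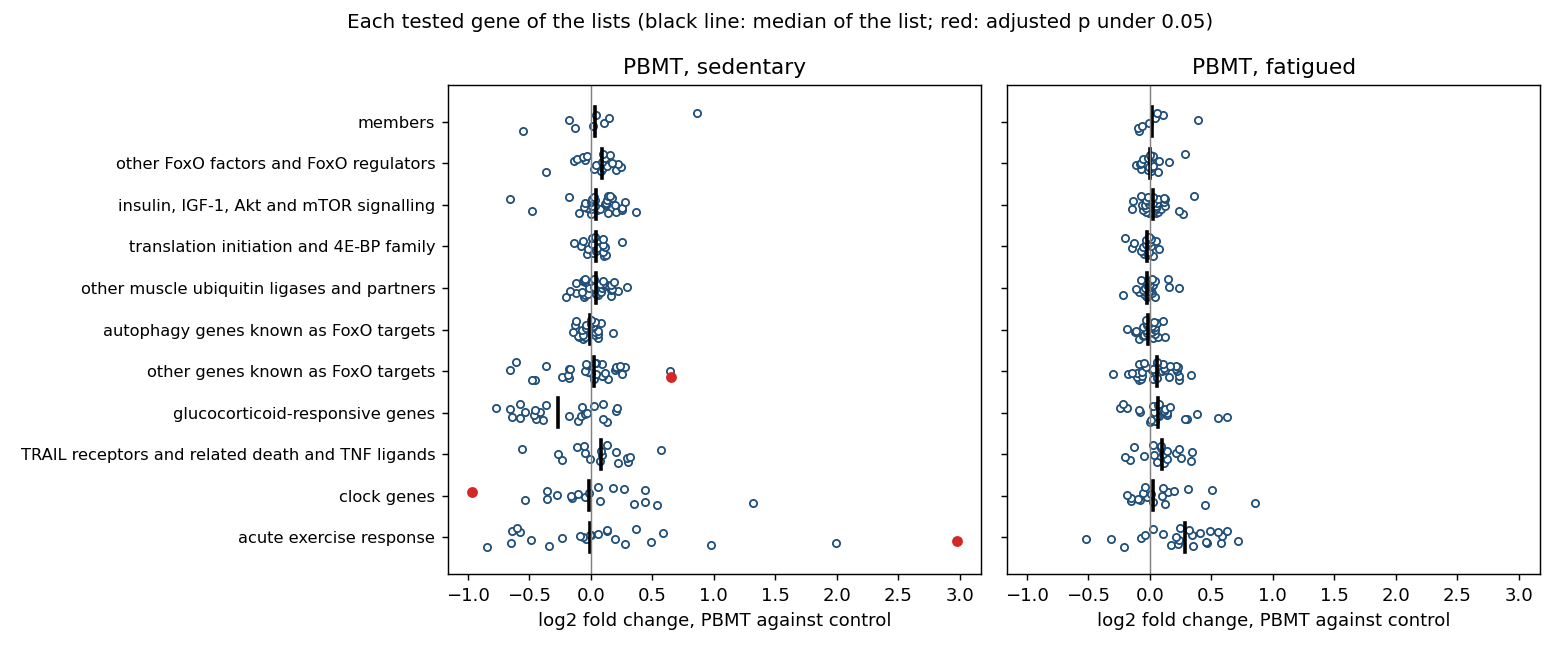
Log2 fold change with PBMT of each gene tested in each list (points, 1 row per list), in sedentary and in fatigued muscle, with a black line at the list median and red points for genes called in edgeR. The glucocorticoid list has its median at −0.27 in sedentary and 0.07 in fatigued muscle, and red points appear only for Cited2, Nfil3 and Egr1.

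Between fatigued and sedentary muscle the counts of the same lists stand beside 9.1% of all genes called higher and 9.49% lower without PBMT, and 14.1% and 12.7% with it. Without PBMT 2 of the 10 lists, insulin and mTOR signalling and translation initiation, lay below both shares, and with PBMT none did. Of 32 other FoxO targets 5 were higher and 1 lower without PBMT, and 9 were higher and 7 lower with it. Slc7a8, an amino acid transporter, rose by 1.68 without PBMT (SE 0.168, adjusted p = 4.8e-07 in edgeR, higher in 6 of 6 mice) and by 2.35 with it (SE 0.173, adjusted p = 2.17e-09 in edgeR, higher in 6 of 6 mice). Irs2 rose by 1.62 and 2.34, and Ppargc1a, the coactivator PGC-1α, by 2.10 and 2.05. In the insulin and mTOR list 2 were higher and 2 lower without PBMT, and 5 higher and 6 lower with it. Ddit4, an inhibitor of mTORC1 that FoxO factors and glucocorticoids induce, fell by 1.66 on the log2 scale without PBMT (adjusted p = 0.0327 in edgeR), from 128 ± 40.0 to 40.5 ± 24.2 CPM. With PBMT it had a log2 fold change of −0.87 (SE 0.519, adjusted p = 0.229 in edgeR) and was called by neither edgeR nor DESeq2, at 80.8 ± 44.9 CPM in sedentary and 44.3 ± 33.6 CPM in fatigued mice.

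Of 32 other ligases and partners 6 were higher and 2 lower without PBMT, and 6 higher and 8 lower with it. Ubb, a ubiquitin gene, was called higher in both (0.39 and 0.39), and the ligase Traf6 lower in both (−0.27 and −0.38). The ligase Wwp1 had −0.28 without PBMT (adjusted p = 0.0768 in edgeR) and fell with it (−0.48, adjusted p = 0.00226 in edgeR). Of 27 autophagy genes 5 were higher and 4 lower without PBMT, and 4 higher and 3 lower with it. Gabarapl1, an LC3-family gene, rose by 0.55 and 0.72, and the autophagy receptor Sqstm1 by 0.57 and 0.52, whereas the mitophagy receptor Bnip3l fell by 0.31 and 0.39 and Atg5 by 0.28 and 0.45. In the translation list the called genes numbered 1 lower without PBMT, and 1 higher and 3 lower with it. Pdcd4 fell by 0.35 and 0.55, and Eif4e, the partner of 4E-BP1, fell by 0.36 with PBMT.

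Regulators of FoxO moved in both directions, 2 higher and 3 lower without PBMT and 2 higher and 4 lower with it. Sgk1, a kinase that phosphorylates FoxO3, fell by 0.66 and 0.47, and the 14-3-3 protein Ywhaz, which binds phosphorylated FoxO, rose by 0.26 and 0.47. Glucocorticoid-responsive genes were called higher in 7 and lower in 3 of 24 without PBMT, and in 8 and 2 with it. Zbtb16 rose by 0.90 and 1.65, and the metallothionein Mt1 by 1.66 and 2.79. In the TRAIL and TNF family 2 and 4 of 18 were higher and none lower. They included the TWEAK receptor Tnfrsf12a (2.73 and 2.41) and the TNF receptor Tnfrsf1b (1.11 and 1.26). Clock genes gave 2 higher and 2 lower, then 3 higher and 5 lower, of 19. The exercise list had 19 of 24 higher and 1 lower, Pfkfb3, in both comparisons, with Atf3 at 4.28 and 5.00.

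The genes most like each member were found over the 24 mice, as the highest Pearson r of log2 CPM taken as deviations from the own group's mean, among 15107 other genes. Ell2 (r = 0.872), Nr4a2 (0.841) and Plxna2 (0.797) were nearest to Foxo1, with r of 0.609, 0.450 and 0.833 within the 12 sedentary and 0.905, 0.907 and 0.794 within the 12 fatigued mice. Foxo3 had Acvr1b (0.932), Arrdc2 (0.902) and Qars (0.866), and Foxo4 had Nub1 (0.943), Dnajc21 (0.936) and Mapkapk3 (0.930). For Fbxo32 they were Klhl38 (0.924), Zfyve1 (0.893) and Nadk2 (0.884). Trim63 was closest to Mylk2 (0.837), Ckm (0.830) and Vapa (0.819), with r of 0.902, 0.939 and 0.907 within the sedentary and 0.711, 0.545 and 0.591 within the fatigued mice. Fbxo30 had Mier1 (0.891), Sacm1l (0.871) and Wasl (0.834), and Eif4ebp1 had Psmd7 (0.879), Washc1 (0.870) and Wdr70 (0.870). Around Tnfsf10 stood St8sia4 (0.909), Tjp1 (0.908) and Afdn (0.896), with r of 0.944, 0.964 and 0.922 within the fatigued mice and 0.592, 0.794 and 0.684 within the sedentary ones. For the genes nearest to the other 5 members r within either project lay between 0.773 and 0.970. No member was among the 3 genes most like another member, though some members varied together. Between members r ran from −0.692 for Foxo1 and Tnfsf10 to 0.733 for Foxo1 and Foxo3. In the same order these pairs had r of 0.172 and 0.313 within the sedentary and −0.802 and 0.870 within the fatigued mice. Foxo4 and Trim63 had the highest r of the sedentary mice, 0.907, against 0.141 within the fatigued ones.

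Promoters were read because Foxo1, a forkhead factor, and Trim63 were both higher in fatigued muscle. RefSeq (GRCm38.p6) gave the 250 bases before and 50 after the start of 5 of the 8 genes, Foxo1, Foxo3, Trim63, Fbxo30 and Tnfsf10, and the other 3 were Foxo4, Fbxo32 and Eif4ebp1. Both strands were searched for the forkhead core GTAAACA, the insulin response core CAAAACA and the glucocorticoid receptor core AGAACA. These occur in 3.65%, 6.28% and 19% of 32851 promoters of the table. Of the 5 promoters read 1, that of Trim63, held any of the 3 motifs, and it held a pair. The share of all promoters with any of the 3, or with this pair, was not counted, so the match does not set Trim63 apart. The letters TGTTCT, the reverse complement of AGAACA, lie at 134314920 to 134314925 and TGTTTAC, the reverse complement of GTAAACA, at 134314926 to 134314932, side by side without overlap. The 250 bases before the start, chr4:134314870-134315119 on the plus strand, are printed with both in capitals.
Trim63 promoter: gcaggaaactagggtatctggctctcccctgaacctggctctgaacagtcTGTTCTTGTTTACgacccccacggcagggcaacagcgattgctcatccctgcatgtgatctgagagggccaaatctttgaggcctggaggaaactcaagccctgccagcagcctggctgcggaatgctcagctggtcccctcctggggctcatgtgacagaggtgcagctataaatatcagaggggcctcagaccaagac
A match of letters is a description of the sequence, and binding was not measured.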

How the data were processed

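Raw counts per gene for each of the 24 mice were used as deposited by the authors, from polyA-selected, directional 150-base paired-end libraries (RNA integrity number of at least 7.7). The submitters' processing notes name GRCm38, Trimmomatic, STAR 2.7.1a, Picard 2.20.4, StringTie 2.0.4, featureCounts 1.6.0 and HTSeq, without saying which counter or strand setting made the counts. Of 55487 gene identifiers 55227 matched GENCODE M21, which gave symbols, positions and exon lengths. Counts were fitted in R 4.3.3 with edgeR 4.0.16 (TMM, filterByExpr with a minimum count of 10, robust quasi-likelihood test, Benjamini-Hochberg over all genes tested, threshold 0.05). Each PBMT comparison used its own 12 mice, and the interaction and the fatigue comparisons used all 24 mice with 4 group means. Single genes were also tested by exact permutation of log2 CPM with a prior count of 2. The edgeR procedure was tested on simulated data. The alternatives tried were testing all genes with a count, requiring 10 counts in all mice, DESeq2 size factors, DESeq2 1.42.0, a replicate block, another set of mice in the fit and each mouse left out. The members and lists were chosen with earlier results of these data known. From each list and comparison the text could name the 4 called genes of smallest p, or, where no gene was called, the 2 of smallest p. Genes called by DESeq2 alone, Tnfrsf10b, markers named singly and values of a named gene in a further comparison were chosen after their values were seen. Protein levels and FoxO phosphorylation were not analysed here, and some genes of the lists are not reported here.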

Additional observations from a re-analysis of the deposited data

Results flagged for a closer look

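Of the 32 sets of 6 mice formed by the 8 genes and 4 groups, 1 held a mouse far from the rest. Sedentary control 4 had 448 CPM of Trim63, and its gap to the next control was 0.715 of the range of the group, above the limit of Dixon's test for 6 samples. Chance alone marks about 1 in 20 groups in this way.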

How the results depend on the processing

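For PBMT in sedentary muscle 4 genes were called, against 16 with no filter on low counts, 60 with DESeq2, 11 with a replicate block and 1 with all 24 mice in 1 model. With each mouse left out the count ran from 2 to 20, with 18 without control 4, 20 without PBMT 5, 10 without PBMT 2, 7 without PBMT 4, and 2 without control 1, 2 or 6. For PBMT in fatigued muscle 0 became 2 with DESeq2 and 1 with the replicate block, and stayed 0 with each mouse left out. For the interaction 1 became 3 without sedentary PBMT 2. The fatigue comparisons called 2809 genes without PBMT and 4051 with it and stayed within 1.5 times of these in each alternative run. Deviations of mice of the same number in both groups of a project correlated at −0.0715 to 0.0664 in sedentary and −0.0846 to 0.325 in fatigued mice. In the fatigued project 4 of 6 pairs lay at 0.144 or above, and 3 of 6 numbers (1, 3 and 5) matched best with themselves. The sample titles give a number per mouse without saying that equal numbers belong together, and the main fits did not pair the mice. These correlations do not settle whether mice of the fatigued project were paired, and the replicate block is the fit that allows for it. The cause of these moves was not tested.

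Members whose sign turned with 1 mouse left out had small log2 fold changes and were not called. In sedentary PBMT muscle the ranges were −0.031 to 0.086 for Foxo4, −0.066 to 0.24 for Fbxo32, −0.31 to 0.072 for Trim63 and −0.0065 to 0.13 for Eif4ebp1. In fatigued PBMT muscle they were −0.24 to 0.00088 for Foxo1, −0.14 to 0.11 for Fbxo32, −0.019 to 0.12 for Fbxo30, −0.0057 to 0.17 for Eif4ebp1 and −0.12 to 0.34 for Tnfsf10. For the interaction they were −0.061 to 0.11 for Foxo3, −0.25 to 0.062 for Fbxo32 and −0.051 to 0.13 for Eif4ebp1, and for fatigue without PBMT −0.098 to 0.012 for Foxo4. The counts of glucocorticoid-responsive genes under each alternative were added after seeing the data and ran from 5 to 12 lower at an unadjusted p, with 12 without sedentary PBMT 5. Tnfsf10, at a count of 97 in 1 mouse, had the least depth of the members.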

Other observations

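The 7 keratinocyte markers summed to 2.99 ± 1.43 CPM in sedentary controls, 7.98 ± 10.9 CPM in sedentary PBMT mice, where 1 mouse reached 29.1 CPM, and 2.22 ± 1.18 and 1.67 ± 0.317 CPM in fatigued control and PBMT mice. The 5 erythrocyte markers, led by Hbb-bs, summed to 102 ± 31.7, 98.5 ± 29.5, 86.3 ± 33.8 and 88.0 ± 29.7 CPM in the same order. Slow fibre markers (7, led by Myl3) summed to 97.4 ± 17.4, 94.8 ± 13.6, 102 ± 33.3 and 129 ± 45.0 CPM. With PBMT in fatigued muscle none of the 7 was called by edgeR or DESeq2, and 1 was higher at an unadjusted p under 0.05. Adipocyte markers (6, led by Cfd) summed to 24.98 ± 7.50, 23.9 ± 14.8, 38.9 ± 28.1 and 48.6 ± 37.1 CPM. Tendon and cartilage markers (6, led by Fmod) summed to 98.0 ± 33.2, 103 ± 23.1, 192 ± 88.9 and 234 ± 192 CPM, 1 fatigued PBMT mouse reaching 615 CPM.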
